A study of Homo sapiens with 54 samples.

Results

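BT-474 is an established human breast cancer line of the luminal type with a high level of ERBB2, the gene for the receptor HER2. The response of this line to afatinib, an inhibitor of the ERBB receptor kinases, was examined across all genes. The comparison holds 6 of the 54 libraries of the series, chosen by the line and drug named in their labels: 3 BT-474 libraries with afatinib and 3 BT-474 control libraries of the second count table. The other libraries come from colorectal, stomach and breast cancer lines with trametinib, palbociclib, afatinib or no drug. Of these, the 12 afatinib and control libraries of 2 lines were used to ask where BT-474 differed. NCI-N87 is a stomach line that also has high ERBB2, and BT-20 is a breast line with low ERBB2 but high EGFR. A first set of colorectal libraries, control and trametinib, is also in the other count table, and the other 42 libraries form the second set. All lines were grown in DMEM with 10% serum, and the libraries read only transcript 3′ ends, so that a gene's count follows its number of transcript ends rather than its length. The labels call the untreated libraries control and name no vehicle, dose or time of exposure, and nothing in them ties the 3 libraries of a group to separate cultures. P-values therefore measure only the spread between these libraries, which may be technical.

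HER2 is a receptor tyrosine kinase with no known ligand of its own. It pairs with EGFR, HER3 (ERBB3) or HER4 (ERBB4), and the active pairs switch on the RAS-MEK-ERK and PI3K-AKT cascades, which carry cells from G1 into S phase, raise nutrient uptake and biosynthesis, and keep FOXO transcription factors out of the nucleus. In a subset of breast cancers the ERBB2 gene lies in an amplified segment of chromosome 17 and its signal drives growth. Afatinib binds the kinase domains of EGFR, HER2 and HER4 covalently. Kinase activity was not measured here, and the values are RNA levels.

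The libraries carried the markers of a luminal line with high ERBB2. The 15 markers of that type summed to 6237 to 6479 CPM in the controls (CPM, counts scaled to the library total, here with no further scaling) and to 7300 to 7679 CPM with afatinib. ERBB2, its neighbour GRB7, the luminal keratins KRT8, KRT18 and KRT19, and the receptor gene PGR all contributed, while TFAP2B, also on the list, had 7 counts in all controls together. Of 9 basal breast markers, KRT6A and KRT6B had no count in any library, and the list's sum, 102 to 117 CPM in controls and 107 to 120 CPM with afatinib, came mostly from VIM and CDH3. Markers of stomach and intestine were low but higher with the drug: 9 gastric markers summed to 11.6 to 14.3 CPM in controls and 25.7 to 29.4 CPM with afatinib, and 9 intestinal markers to 13.4 to 15.9 CPM and 22.4 to 22.6 CPM. GKN1, GKN2 and CDX1 had no count in any of the 6 libraries. Fibroblast markers summed to 30.7 to 33.9 CPM and 36.9 to 49.8 CPM, of which COL1A1 made up nearly all, and blood markers to at most 5.55 CPM. Genes high in another line of the table (100 CPM or more) but below 1 CPM in the BT-474 controls, and so low there by choice, summed to 0.0596 to 0.321% of their level in those lines in the controls and to 0.205 to 1.19% with afatinib. The 93 named genes that rose in BT-474 were set against their highest group mean in the other lines of the second set. Of these, 91 rose by more than 1.19% of that level. PPP1R1B and BMP4 were the exceptions. The 1.19% is a share summed over several genes and is no bound for a single gene, so the comparison does not settle any single gene. The part of these sums in the gene lists below was not tested.

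Library totals in the series ran from 3401565 to 12806042 counts. The BT-474 controls held 7487141 to 8137276 counts and the afatinib libraries 5765064 to 6228509, so every afatinib library was shallower than every control. A count of 3 corresponded to at most 0.520 CPM. Mitochondrial ribosomal RNA took 9.38 to 12.03% of control counts and 7.63 to 9.73% of afatinib counts. Libraries of 1 group differed by more than sampling noise (chi-square per degree of freedom of 3.46 to 5.69), so none was a copy of another. The first principal component held 66.2% of the variance and separated the 3 afatinib from the 3 control libraries.

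Afatinib changed a large share of the BT-474 transcriptome. Of 12768 genes tested, 2673 (20.9%) were higher and 2784 (21.8%) were lower with the drug at an adjusted p under 0.05 (edgeR quasi-likelihood test, Benjamini-Hochberg over all tested genes). A change of at least 2-fold was reached by 769 of the higher and 517 of the lower genes. For 5282 of the 5457 called genes the 3 afatinib libraries all lay on 1 side of the 3 controls. The call uses the same values, so this count is no separate support, and the share among all tested genes is not given. DESeq2 called fewer genes, 1976 higher and 2364 lower. The median log2 fold change over all tested genes was 0.01.

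Among called genes whose groups did not overlap and whose mean log2 CPM reached 4, the strongest rises were in genes of varied roles. Some genes below that level, such as ARRDC4, HMMR and KIF20A given with their lists, changed as much. TXNIP, which inhibits thioredoxin and glucose uptake, had the largest rise at this level. Its level, in CPM scaled by TMM as are all levels of single genes from here on, was 70.9, 91.7 and 169 in the controls and 1506, 1358 and 1495 with afatinib. All afatinib libraries stood far above all controls, and the controls themselves spread more than 2-fold (log2 fold change 3.71 ± 0.23 SE, adjusted p = 1.5e-07). TNFSF10, which encodes the death ligand TRAIL, stood at 8.26, 8.70 and 5.19 CPM in controls and 56.5, 50.6 and 45.2 CPM with the drug (2.78 ± 0.16, adjusted p = 5.5e-08). CDKN1C, the gene of the CDK inhibitor p57, rose from 12.3 ± 1.93 to 49.2 ± 1.65 CPM (SD, n = 3). The protocadherin gene PCDH19, on the X chromosome, stood at 23.5, 24.0 and 19.3 CPM and then at 153, 158 and 158 CPM, with a wide gap between the groups. The remaining 8 of the 12 highest genes rose by log2 values between 1.76 and 2.30: PYROXD2, KLK10, NAALADL2, RBM20, FAM84A, LOXL4, KLK11 and TNFSF15. KLK10 and KLK11 encode secreted serine proteases, LOXL4 a lysyl oxidase of the extracellular matrix, and TNFSF15 a cytokine of the TNF family. NAALADL2 varied most among them, at 31.1, 27.0 and 56.0 CPM with afatinib against 8.12, 8.57 and 10.5 CPM.

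Most of the strongest falls, under the same limit on level, were in genes known to act in cell division. FAM111B had the largest, from 142, 127 and 148 CPM to 3.60, 2.96 and 5.11 CPM (log2 fold change −5.14 ± 0.14, adjusted p = 1.2e-10). PRR11, at chr17:59155746-59206709, followed with 657, 643 and 669 CPM in controls and 33.5, 30.1 and 29.9 CPM with afatinib (−4.40 ± 0.07, adjusted p = 1.9e-12). Both groups were tight and lay far apart. The other 10 of the 12 lowest genes fell by between 3.19 and 3.88 on the log2 scale. NUF2 and CENPN encode kinetochore proteins, PLK1 and AURKB mitotic kinases, CCNB1 cyclin B1, PTTG1 securin, UBE2C a ubiquitin enzyme of the anaphase-promoting complex, and TPX2 and KIF4A spindle proteins. DUT encodes the enzyme that keeps uracil out of DNA.

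**Figure D1:**
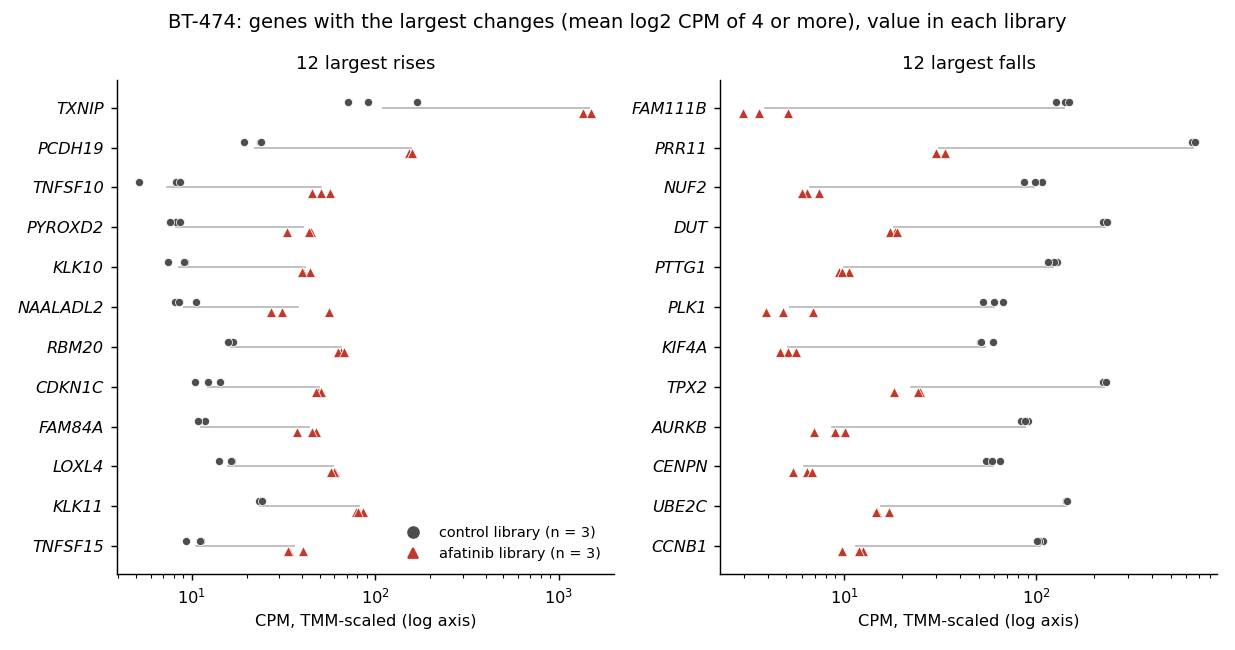
TMM-scaled CPM on a log axis of the 12 genes with the largest rises (left) and the 12 with the largest falls (right) in BT-474 among called genes whose mean log2 CPM reached 4, with 1 point per library (circles, 3 controls; triangles, 3 afatinib) and a line joining the group means. Only genes whose 3 afatinib points all lie on 1 side of the 3 controls were eligible, so this separation comes from the choice of genes. TXNIP rises from 70.9 to 169 CPM up to 1358 to 1506 CPM.

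At the top of the pathway, the log2 fold changes of the 4 receptor RNAs lay between −0.78 (EGFR) and 0.66 (ERBB3) in the main test. ERBB2 (chr17:39688094-39728658) stood at 1089, 1114 and 1073 CPM in controls and 962, 1005 and 1124 CPM with afatinib. The groups overlapped, and the difference did not pass the test (log2 fold change −0.08 ± 0.07, adjusted p = 0.32). Without afatinib library 3, the highest of its group, the value was −0.16 with an adjusted p of 0.026. ERBB3, which has little kinase activity and docks PI3K when paired with HER2, rose from 158, 150 and 155 CPM to 240, 255 and 236 CPM (0.66 ± 0.06, adjusted p = 3.6e-06), with no overlap. EGFR, at 6.61, 3.29 and 8.30 CPM and then 2.45, 3.12 and 4.95 CPM, and ERBB4, at a control mean of 6.70 ± 1.15 CPM (SD, n = 3) against 7.89 ± 1.96, did not pass (adjusted p of 0.096 and 0.41). EGFR did pass without control library 2 (log2 fold change −1.09), without afatinib library 3 (−1.13) and with no filter on low counts (−0.80, adjusted p = 0.044).

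Among 7 EGF-family ligands with enough counts to test, AREG, which activates EGFR, was the 1 that passed. Over all genes 20.9% were higher and 21.8% lower, so the count is no result about the list. AREG rose from 132, 104 and 103 CPM to 171, 185 and 201 CPM (log2 fold change 0.72 ± 0.10, adjusted p = 9.4e-05), and the groups did not overlap. NRG1, the main ligand of HER3, had no count in any of the 6 libraries. Of 15 tested adaptors and inhibitors of the receptors, 2 were lower and none higher, against 21.8% and 20.9% of all genes. This too is no result about the list. PTPN11, the phosphatase SHP2 that carries the signal to RAS, fell by 0.85, and the adaptor gene GRB2 by 0.27. Of 18 tested genes of the ERBB2 neighbourhood on chromosome 17, ERBB2 included, 9 were higher and 2 lower, against 20.9% and 21.8% of all genes, with a median log2 fold change of 0.18 beside 0.01 over all genes. GSDMB, a gasdermin gene, rose the most, from 63.4 ± 3.44 to 144 ± 8.70 CPM, and CDK12, a transcription kinase gene, rose by 0.34. PNMT fell by 0.49.

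Several genes whose RNA follows ERK activity in many cells, among them feedback inhibitors of the cascade, were lower. Of 23 tested genes on the list of MEK-ERK output, 11 fell and 3 rose, against 21.8% and 20.9% of all genes, with a median log2 fold change of −0.37. DUSP6, a phosphatase that inactivates ERK, stood at 92.8, 86.7 and 84.1 CPM in controls and 28.4, 26.5 and 27.4 CPM with the drug, with a wide gap between the groups (−1.68 ± 0.08, adjusted p = 1.8e-08). DUSP4, a nuclear phosphatase of the same family, fell from 190.0 ± 5.19 to 62.1 ± 11.4 CPM. The Sprouty gene SPRY4 and the ETS-factor genes ETV4 and ETV5 were at low levels. SPRY4 fell from 5.33 ± 0.76 to 2.21 ± 0.44 CPM, ETV4 from 4.498 ± 1.11 to 1.62 ± 0.53 CPM, and ETV5 from 15.4 ± 3.93 to 9.68 ± 1.81 CPM. The ETV5 call was lost without control library 1 (log2 fold change −0.45) or afatinib library 3 (−0.54). CCND1, the gene of cyclin D1, fell by only 0.36 (adjusted p = 0.00099), and MYC did not pass (0.11 ± 0.09, adjusted p = 0.31). The 3 genes of the list that rose were EPHA4, an ephrin receptor gene, by 1.24, and, outside the rule for named genes and singled out after their values were seen, SPRED3, also a feedback inhibitor, by 0.87, and PHLDA1 by 0.52. FOSL1, likewise named after its value was seen, had the list's highest value, 1.79 ± 0.76, at 0.822 ± 1.31 CPM in controls and 2.94 ± 1.01 CPM with afatinib, and did not pass (adjusted p = 0.076). Without control library 2 or afatinib library 1, only 1 gene of the list passed as higher.

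Immediate early genes, which growth factors induce within minutes, gave a similar count, 11 lower and 3 higher of 22 tested, against 21.8% and 20.9% of all genes, with a median of −0.36. The AP-1 gene JUN fell from 135, 132 and 160 CPM to 51.0, 57.4 and 64.7 CPM (−1.30 ± 0.10, adjusted p = 7.4e-07). KLF2 fell by 1.53, ATF3 by 1.36, DUSP1 by 1.19 and NR4A1 by 1.07 on the log2 scale. KLF10, a factor induced by TGF-beta, rose by 1.003.

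Of 29 tested genes that FOXO factors induce or that act in feedback on PI3K, 19 rose, 4 fell and 6 did not pass, beside 20.9% and 21.8% of all genes, and the median was 0.44. Relative to the control mean, the list's median in the 3 afatinib libraries was 0.48, 0.45 and 0.54. IGF1R, a receptor upstream of PI3K, stood at 80.3, 87.9 and 84.6 CPM in controls and 150.3, 179 and 164 CPM with afatinib (0.97 ± 0.08, adjusted p = 1.1e-06). IRS2, the adaptor that links it to PI3K, stood at 32.6, 39.5 and 31.0 CPM and then at 61.9, 63.3 and 60.1 CPM. Neither gene's groups overlapped. FOXO1 rose by 1.38, FOXO4 by 1.34, PIK3IP1, an inhibitor of PI3K, by 1.35, and YPEL3 by 1.24. INSR did not pass: afatinib library 1 stood at 159 CPM and the other two at 75.3 and 61.1 CPM, inside the control range of 49.8 to 109.8 CPM (0.27 ± 0.31, adjusted p = 0.52). CDKN1B, the p27 gene and a classic FOXO target, was 0.21 lower and missed the threshold (adjusted p = 0.065), although its groups did not overlap. It passed without control library 3 or afatinib library 1, with a value of −0.27 in both cases. Of the 4 genes that fell, PDK4 had the largest change, −0.95, at a control level of 5.57 ± 0.92 CPM.

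**Figure D2:**
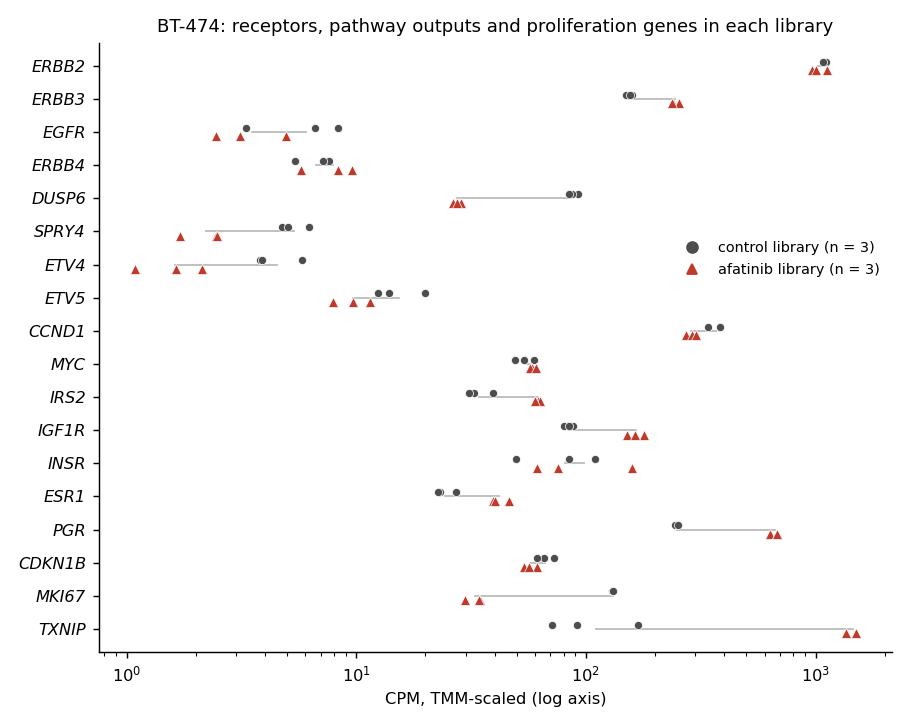
TMM-scaled CPM on a log axis of 18 receptor, pathway and proliferation genes in BT-474, with 1 point per library (circles, 3 controls; triangles, 3 afatinib) and a line joining the group means. ERBB2 overlaps between groups at 962 to 1124 CPM, DUSP6 falls from 84.1 to 92.8 CPM down to 26.5 to 28.4 CPM, and PGR rises from 245 to 253 CPM up to 636 to 682 CPM.

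TXNIP belongs to 2 of the lists, since FOXO factors and the glucose-sensing factors MondoA (MLXIP) and ChREBP (MLXIPL) both act on it. Of 9 tested glucose sensors and arrestin-domain genes, 6 rose and none fell, against 20.9% and 21.8% of all genes, with a median of 0.48. With DESeq2, or with all 42 libraries of the second set in 1 fit, 4 rose. ARRDC4, the arrestin-domain gene closest to TXNIP in its control by glucose, stood at 2.20, 3.43 and 6.88 CPM in controls and 32.0, 31.7 and 25.5 CPM with afatinib (2.82 ± 0.25, adjusted p = 3.4e-06). In both TXNIP and ARRDC4 the order of the controls was the same, with library 1 lowest and library 3 highest. MLXIPL rose by 0.48 and MLXIP by 0.32. The TXNIP promoter is shown because its carbohydrate response element, the site that MondoA and ChREBP bind, is rare. The motif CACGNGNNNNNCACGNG, searched on both strands, was in 0.1% of 27305 promoter windows of RefSeq (GRCh38.p14, 250 bases before to 50 after the gene's start), 20 in all. Capitals mark this element and 2 CCAAT boxes (CCAAT or its complement ATTGG) in chr1:145996530-145996829, minus strand:

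TXNIP: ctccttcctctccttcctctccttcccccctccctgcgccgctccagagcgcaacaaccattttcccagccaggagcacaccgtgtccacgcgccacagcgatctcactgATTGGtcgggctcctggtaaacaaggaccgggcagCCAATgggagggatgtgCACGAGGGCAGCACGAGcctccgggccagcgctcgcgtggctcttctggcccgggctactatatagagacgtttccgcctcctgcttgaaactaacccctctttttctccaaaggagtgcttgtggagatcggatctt

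A match describes the letters of the window and does not show that a factor bound there.

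Cell-cycle genes fell together. All 35 tested genes of the G2 and M phases were lower (median log2 fold change −2.63, range −3.77 to −1.32), and 38 of 40 genes of the G1/S transition and DNA replication were lower, with none higher (median −1.59). Of all tested genes 21.8% were lower. Relative to the control mean, the G2/M median was −2.61, −2.68 and −2.61 in the 3 afatinib libraries, and the G1/S median −1.54, −1.49 and −1.57, so no single library set either value. In bulk RNA, fewer cycling cells and less of these RNAs per cell cannot be told apart.

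In the G1/S list, TK1, a thymidine kinase made in S phase, fell from 58.0, 58.9 and 56.6 CPM to 7.35, 9.21 and 9.29 CPM (−2.74 ± 0.11, adjusted p = 2.2e-09). E2F1, the activator of the G1/S programme, fell from 24.4, 24.6 and 23.1 CPM to 4.90, 5.75 and 2.01 CPM (−2.52 ± 0.23). In each gene the groups were several-fold apart. MCM10, CDC45 and GINS2, parts of the replication fork helicase and its loading, fell by 2.72, 2.67 and 2.57, and RRM2, which makes deoxynucleotides, by 2.49. In the G2/M list, HMMR, a spindle protein gene, and KIF20A, a kinesin gene of cytokinesis, fell most, by 3.77 and 3.69. MKI67, the gene of the proliferation marker Ki-67, stood at 129.8, 131 and 131 CPM in controls and 34.6, 34.2 and 29.7 CPM with the drug (−1.99 ± 0.08, adjusted p = 2.3e-09).

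The regulators of the G1 engine were mixed. Of 19 tested D cyclins, CDKs and CDK inhibitors, 10 were lower and 3 higher, against 21.8% and 20.9% of all genes (median −0.38). CKS1B, which helps degrade p27, fell from 213, 191 and 195 CPM to 33.8, 36.2 and 38.5 CPM (−2.46 ± 0.08), and the phosphatase gene CDKN3 fell by 2.43. The inhibitor genes moved in opposite directions. CDKN1C rose as given above, CDKN2C, for p18, fell by 1.81 and CDKN1A, for p21, fell from 9.90 ± 1.10 to 4.72 ± 0.90 CPM. CCND2, for cyclin D2, rose by 1.07 from 4.16 ± 0.49 CPM, but its groups overlapped and the call was lost without any 1 of 5 of the 6 libraries.

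The promoters of these genes are shown because 2 short motifs differ in frequency between the lists. The cell cycle homology region (CHR, TTTGAA) is bound by the DREAM and MuvB complexes, which act on G2/M genes, often beside CCAAT boxes. E2F factors bind TTTCCCGC or TTTGGCGC. All motifs were searched on both strands of the same 300-base windows. The CHR was found in 19 of the 29 G2/M promoters that matched a RefSeq window (65.5%), in 1 of 34 G1/S promoters (2.9%) and in 9.4% of the 9221 windows of tested genes. A CHR together with a CCAAT box stood in 17 of the 29 (58.6%), against 4.1% of tested genes. The E2F motif stood in 16 of the 34 G1/S promoters (47.1%), in 2 of the 29 G2/M promoters (6.9%) and in 3.8% of tested genes. PRR11, PLK1 and CENPN, 3 of the 12 lowest genes, carry a CCAAT box 23, 39 and 4 bases before the CHR. They are printed with both motifs in capitals, and the windows are chr17:59155496-59155795, chr16:23678639-23678938 and chr16:81006964-81007263, all on the plus strand. E2F1 and GINS2 carry the E2F motif, in capitals with their CCAAT boxes, at chr20:33686336-33686635 and chr16:85688905-85689204, both on the minus strand.

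PRR11: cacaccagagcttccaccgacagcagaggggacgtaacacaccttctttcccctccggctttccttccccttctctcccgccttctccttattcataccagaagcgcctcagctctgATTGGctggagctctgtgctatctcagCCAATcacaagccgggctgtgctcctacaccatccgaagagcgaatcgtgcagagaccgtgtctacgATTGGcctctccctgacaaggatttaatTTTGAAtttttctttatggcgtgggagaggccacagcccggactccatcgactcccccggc

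PLK1: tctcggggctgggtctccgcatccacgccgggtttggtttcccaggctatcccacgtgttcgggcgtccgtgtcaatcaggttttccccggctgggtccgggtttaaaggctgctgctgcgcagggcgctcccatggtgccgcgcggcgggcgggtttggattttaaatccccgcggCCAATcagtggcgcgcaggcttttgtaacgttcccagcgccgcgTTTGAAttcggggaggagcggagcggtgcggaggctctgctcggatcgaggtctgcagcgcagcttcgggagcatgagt

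CENPN: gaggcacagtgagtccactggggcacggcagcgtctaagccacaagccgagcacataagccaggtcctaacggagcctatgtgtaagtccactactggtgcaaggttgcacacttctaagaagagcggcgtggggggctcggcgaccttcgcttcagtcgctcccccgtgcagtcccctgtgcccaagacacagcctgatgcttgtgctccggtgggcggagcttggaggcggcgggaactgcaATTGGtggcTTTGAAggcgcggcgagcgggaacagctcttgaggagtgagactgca

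E2F1: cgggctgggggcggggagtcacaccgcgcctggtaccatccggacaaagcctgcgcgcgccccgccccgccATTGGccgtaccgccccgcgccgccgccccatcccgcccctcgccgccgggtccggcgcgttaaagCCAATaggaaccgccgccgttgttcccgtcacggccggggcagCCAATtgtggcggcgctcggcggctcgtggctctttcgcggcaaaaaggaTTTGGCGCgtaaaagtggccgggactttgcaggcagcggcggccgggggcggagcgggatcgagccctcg

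GINS2: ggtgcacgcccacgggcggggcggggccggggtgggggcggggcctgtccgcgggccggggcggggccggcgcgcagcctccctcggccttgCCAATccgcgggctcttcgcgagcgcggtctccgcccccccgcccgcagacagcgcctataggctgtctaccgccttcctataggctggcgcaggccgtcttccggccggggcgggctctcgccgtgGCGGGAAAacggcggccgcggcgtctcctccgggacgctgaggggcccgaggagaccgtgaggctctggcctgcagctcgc

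As with TXNIP, a match describes the window and no binding was measured. CCNB1 and AURKB fell as far as CENPN although their windows hold CCAAT boxes and no TTTGAA, which says only that these letters are not in the 300 bases read.

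**Figure D3:**
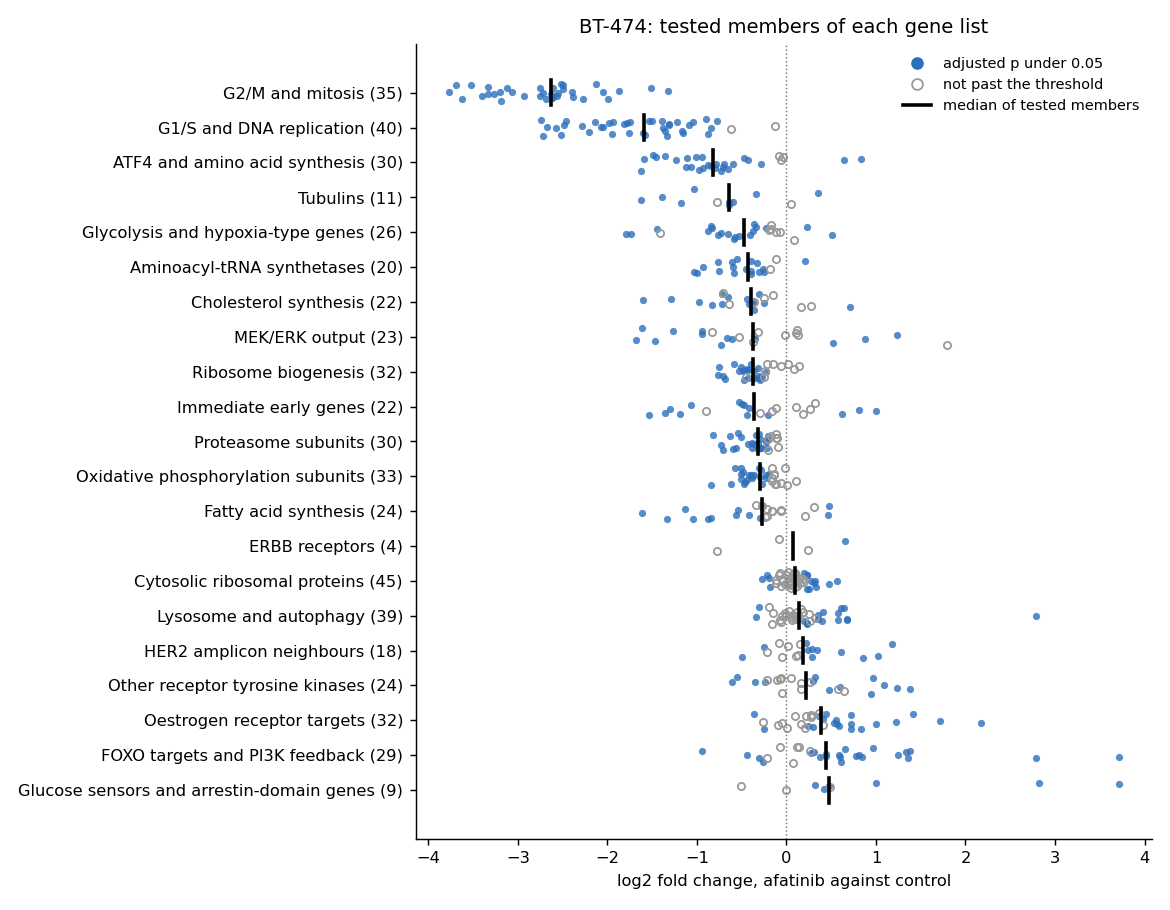
Log2 fold change, afatinib against control in BT-474, of each tested member of 21 gene lists (number tested in brackets), with filled points for members at an adjusted p under 0.05, open points for the others and a bar at the list's median. The G2/M list lies wholly between −3.77 and −1.32, and the lists of FOXO and oestrogen receptor targets have medians of 0.44 and 0.39.

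Genes of amino acid synthesis and uptake that the factor ATF4 controls were lower. Of 30 tested, 25 fell and 2 rose, against 21.8% and 20.9% of all genes, and the median was −0.82. The list's median in the 3 afatinib libraries was −0.89, −0.83 and −0.77. ASNS, asparagine synthetase, stood at 194, 223 and 244 CPM in controls and 71.4, 77.8 and 69.3 CPM with afatinib (−1.60 ± 0.09, adjusted p = 4.8e-08). PSAT1, of serine synthesis, stood at 197, 246 and 260 CPM and then at 82.8, 79.1 and 93.2 CPM. Neither gene's groups overlapped. The cystine transporter gene SLC7A11 fell by 1.62, PCK2 by 1.49, ATF3 by 1.36 and ATF5 by 1.23. The 2 that rose, STC2 and GDF15, encode secreted hormones, and STC2 is also on the oestrogen receptor list. Aminoacyl-tRNA synthetases, which charge tRNAs and are in part under ATF4 control, were lower for 17 of 20 tested genes, with 1 higher and a median of −0.43. MARS, YARS and GARS fell most, by 1.03, 0.995 and 0.93.

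Metabolic lists had more members lower than higher, against 21.8% lower and 20.9% higher over all genes. In the main test, only in glycolysis, cholesterol synthesis and oxidative phosphorylation was that most of the list. Over the alternatives, lower members numbered 12 to 18, 11 to 16 and 18 to 24 in these 3 lists. Of 26 tested glycolysis and hypoxia-type genes, 17 fell and 2 rose (median −0.47). HK2, the hexokinase that traps glucose in the cell, fell from 49.97, 47.0 and 57.7 CPM to 12.6, 16.1 and 16.1 CPM (−1.79 ± 0.12, adjusted p = 2.5e-07). LDHA, lactate dehydrogenase, fell from 247, 210.0 and 246 CPM to 61.6, 89.9 and 60.1 CPM (−1.73 ± 0.13). GAPDH, often taken as a reference gene, fell from 1812 ± 246 to 1016 ± 60.4 CPM, and its groups did not overlap. Of 22 tested cholesterol genes 14 fell and 1 rose (median −0.40). Of 24 tested fatty acid genes 11 fell and 2 rose (median −0.28). The desaturase gene SCD fell from 216 ± 12.2 to 70.3 ± 11.2 CPM, FADS1 fell by 1.34 and ATP-citrate lyase, ACLY, by 0.88. Of 26 tested genes of fasting-type lipid use 11 fell and 5 rose (median −0.10). Of 33 tested subunits of oxidative phosphorylation 22 fell and none rose, by at most 0.84 (median −0.30), CYC1 the most.

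Genes of protein production and turnover gave different counts by list, to be read against 21.8% lower and 20.9% higher over all genes. Of 32 ribosome biogenesis genes 23 fell and none rose (median −0.37). The nucleolar genes NOP58, NOP56 and NCL fell by 0.76, 0.71 and 0.69. Ribosomal protein genes did not share this: of 45 tested, 11 rose, 4 fell and 30 did not pass, with a median of 0.09. The number that rose was 6 without control library 2, 7 without afatinib library 1 or 2, and 17 without afatinib library 3. RPS27 had the largest rise, 0.56 ± 0.10. Of 30 proteasome subunit genes 23 fell and none rose (median −0.31), with PSMC3 going from 105 ± 0.26 to 59.7 ± 3.43 CPM. Of 11 tested tubulin genes 8 fell and 1 rose (median −0.65), and TUBA1B fell from 2888, 3038 and 3239.9 CPM to 1019.5, 1033 and 910.1 CPM (−1.63 ± 0.07, adjusted p = 5.4e-09). Lysosome and autophagy genes leaned the other way, with 14 of 39 higher and 2 lower and a median of 0.14. GABARAPL1, of the autophagosome, rose by 0.67 and the hydrolase gene GUSB by 0.64. CTSF rose by 2.78, at 0.796 ± 0.110 CPM in controls and 5.62 ± 2.56 CPM with afatinib.

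ESR1 and 18 of 32 tested oestrogen receptor targets were higher. ESR1, which encodes the receptor, stood at 23.1, 27.3 and 22.6 CPM in controls and 39.6, 40.1 and 46.1 CPM with afatinib (0.79 ± 0.10, adjusted p = 8.4e-05). PGR, the progesterone receptor gene and its best known target, stood at 249.8, 245 and 253 CPM and then at 636, 678 and 682 CPM (1.42 ± 0.06, adjusted p = 3.2e-09). In both the groups were well apart. Of 32 tested oestrogen receptor targets, 18 rose and 2 fell, beside 20.9% and 21.8% of all genes, with a median of 0.39, and of 0.39, 0.40 and 0.46 in the 3 afatinib libraries. With all 42 libraries of the second set in 1 fit, 11 passed as higher and ESR1 did not (adjusted p = 0.058). CXCL12, a chemokine gene, rose from 4.54 ± 1.31 to 14.9 ± 0.59 CPM, KCNK5, a potassium channel gene, by 1.23, and OLFM1 by 0.999. PDZK1 rose by 2.18 at the lowest level of these, 0.53 ± 0.27 to 2.48 ± 0.56 CPM. GREB1 and TFF1, 2 widely used markers of the receptor's activity named here after their values were seen, each rose by 0.72, from 126 ± 2.88 to 208 ± 11.01 CPM and from 319.6 ± 10.3 to 527 ± 26.5 CPM. CCND1 is on this list too and was 1 of the 2 that fell.

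The luminal identity genes did not move as a group. Of 20 tested luminal factors and keratins 5 rose and 5 fell, against 20.9% and 21.8% of all genes, with a median of 0.02. FOXA1, the factor that opens chromatin for the oestrogen receptor, fell from 200.3, 198 and 196 CPM to 103, 110.2 and 113 CPM (−0.86 ± 0.06, adjusted p = 4.2e-07), against the direction of ESR1 and PGR. KRT7 fell by 1.01, TFAP2A by 0.62 and SPDEF by 0.58. KRT15, a keratin of stratified epithelium, rose from 38.7, 38.0 and 35.8 CPM to 105, 101 and 104 CPM (1.46 ± 0.07), and was the 1 gene of 9 tested on the basal and stratified list that rose.

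Other receptor tyrosine kinases are of interest because they can feed the same cascades as HER2. Of 24 tested, 9 rose and 4 fell, against 20.9% and 21.8% of all genes (median 0.22). EPHA4 stood at 23.8, 25.2 and 26.2 CPM in controls and 60.1, 56.9 and 60.7 CPM with afatinib (1.24 ± 0.08, adjusted p = 2.8e-07). The groups did not overlap. MERTK rose by 1.09 from 10.7 ± 0.87 CPM, and NTRK3 by 1.38 from 1.51 ± 0.124 CPM and AXL by 0.95 from 2.05 ± 0.901 CPM. The AXL call (adjusted p = 0.044) was lost without any 1 of 5 of the 6 libraries. EPHA2 fell by 0.60. Among 15 tested BCL2-family genes, 3 rose and 3 fell, shares close to the 20.9% and 21.8% over all genes, and with all 42 libraries in 1 fit 1 rose and 1 fell. The pro-death genes BMF and BCL2L11, which encodes BIM, rose by 0.87 ± 0.14 and 0.60 ± 0.09, BMF from 10.4 ± 1.62 to 19.0 ± 0.85 CPM, and BBC3, for PUMA, by 0.37. The pro-death genes PMAIP1, for NOXA, and BAD fell by 0.36 and 0.26, and BCL2L12 by 0.41.

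NCI-N87 and BT-20 were compared next, with the afatinib effect in each line set against that in BT-474. The difference of the effects was tested directly, on 12 libraries each time, and the 6 BT-474 libraries enter both. ERBB2 stood at 1917 ± 292 CPM in the NCI-N87 controls and 115 ± 7.21 CPM in those of BT-20 (SD, n = 3). Against NCI-N87, 1133 of 13946 tested genes (8.12%) had a higher effect in BT-474 and 1091 (7.82%) a lower one. Against BT-20 the numbers were 1429 (10.2%) and 1907 (13.6%) of 14019. The NCI-N87 count depended on its control library 1, which resembled its replicates least (mean Spearman correlation over genes of 0.965, against 0.972 and 0.975 for the other controls): 4142 genes passed without it. The median change over all tested genes was −0.0044 in NCI-N87 and 0.0030 in BT-20.

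The afatinib effect on cell-cycle genes was lower in BT-474 than in either line. All 35 G2/M genes had a lower effect than in NCI-N87 and all 35 than in BT-20, and of 40 G1/S genes 37 and 38 did, with none higher. Of all genes, 7.82% had a lower effect than in NCI-N87 and 13.6% than in BT-20. The G2/M median was 0.22 in NCI-N87 and 0.08 in BT-20. PRR11 went from 125 ± 3.97 to 127 ± 11.8 CPM in NCI-N87 and from 85.5 ± 4.67 to 82.3 ± 3.79 CPM in BT-20 (SD, n = 3). The effect in BT-474 minus that in NCI-N87 was −4.41 ± 0.13 (adjusted p = 2.4e-10), and minus that in BT-20 −4.35 ± 0.10 (adjusted p = 1.7e-14). MKI67 stood at 354 ± 82.2 and 532 ± 35.7 CPM in NCI-N87, control and afatinib in turn, and the difference between the lines was −2.57 ± 0.20. For FAM111B the difference was −5.91 from NCI-N87 and −5.03 from BT-20.

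TXNIP separated BT-474 from both lines too. It stood at 516 ± 232 and 459 ± 32.0 CPM in NCI-N87 and at 51.1 ± 4.19 and 87.1 ± 11.7 CPM in BT-20, control and afatinib in turn. The effect in BT-474 was higher by 3.90 ± 0.46 and 2.93 ± 0.30 (adjusted p of 8.4e-05 and 2.2e-06). IGF1R differed by 0.86 and 1.03, ERBB3 by 0.89 and 0.42, and CDKN1C by 2.32 and 1.91, each higher in BT-474 and past the threshold. Of 29 FOXO and PI3K feedback genes, 13 had a higher effect in BT-474 than in NCI-N87 and none a lower one, against 8.12% and 7.82% of all genes. Against BT-20, 13 had a higher and 2 a lower effect, beside 10.2% and 13.6%.

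MEK-ERK feedback genes differed less evenly. DUSP6 stood at 113 ± 31.0 and 114 ± 48.0 CPM in NCI-N87 and at 12.9 ± 4.13 and 7.30 ± 0.87 CPM in BT-20. The effect in BT-474 minus that in NCI-N87 was −1.68 ± 0.38 (adjusted p = 0.0098), and minus that in BT-20 −0.86 ± 0.24 (adjusted p = 0.015). The call against BT-20 was lost without BT-20 afatinib library 3 (adjusted p = 0.055) and with all 42 libraries in 1 fit (0.16). SPRY4 passed neither test, with differences of −1.24 ± 0.43 and −0.68 ± 0.44. ETV5 differed by 0.08 ± 0.30 and −0.16 ± 0.21, neither past the threshold. ERBB2 differed by −0.02 ± 0.17 and −0.05 ± 0.11 (adjusted p of 0.96 and 0.81).

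The ATF4 genes differed from BT-20 in most members and from NCI-N87 in few. Their median was −0.78 in NCI-N87 and −0.06 in BT-20. Of 33 tested against BT-20, 24 had a lower effect in BT-474 and 2 a higher one, beside 13.6% and 10.2% of all genes. Of 32 tested against NCI-N87, 1 had a lower effect and none a higher one, beside 7.82% and 8.12% of all genes. Without NCI-N87 control library 1, an alternative added after the data were seen, 10 had a higher and 2 a lower effect in BT-474. In that fit 2000 of all 14370 tested genes had a higher and 2142 a lower effect. The NCI-N87 median of the ATF4 genes was then −1.06. Among ribosome biogenesis genes, 16 of 32 had a lower effect in BT-474 than in NCI-N87, where the median was 0.38, and 11 than in BT-20. Subunits of oxidative phosphorylation differed from NCI-N87 for 1 of 33 genes and from BT-20 for 16, all lower in BT-474. Beside both lists, 7.82% of all genes had a lower effect than in NCI-N87 and 13.6% than in BT-20. ESR1 and PGR had almost no counts in NCI-N87, which gives no usable comparison there. Against BT-20, where ESR1 stood at 7.37 ± 1.34 and 7.52 ± 0.24 CPM, the effect on ESR1 was higher in BT-474 by 0.74 ± 0.20 (adjusted p = 0.014). That call was lost without BT-20 control library 3 (adjusted p = 0.057) and with all 42 libraries in 1 fit (0.33).

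**Figure D4:**
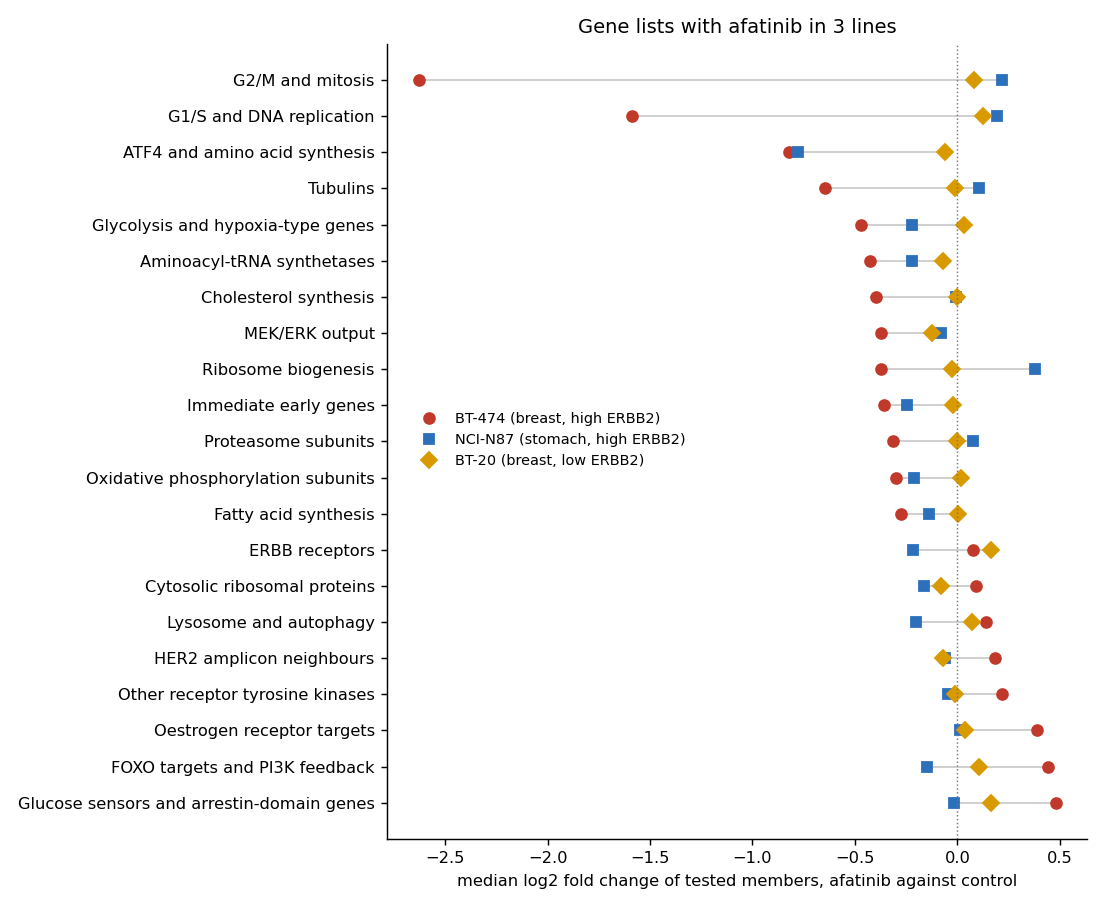
Median log2 fold change, afatinib against control, of the tested members of 21 gene lists in BT-474 (circles), NCI-N87 (squares) and BT-20 (diamonds), each line fitted on its own 6 libraries. The G2/M medians are −2.63, 0.22 and 0.08, and the ATF4 medians −0.82, −0.78 and −0.06.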

How the data were processed

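The deposited values are gene counts of 3′ end libraries (Lexogen QuantSeq, per the labels' protocols). Trimmomatic, STAR, featureCounts and the build hg38 are named in the submitters' processing notes, with no versions or roles given there. The table used holds 33119 genes, and the libraries were matched to groups by their titles. Every column had a sample. The other deposited table, whose libraries recur in the one used, was not used here.

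Counts were tested with edgeR 4.0.16 in R 4.3.3: filterByExpr kept genes at a minimum count of 10 and total of 15, TMM set the scaling, and the quasi-likelihood test was adjusted by Benjamini-Hochberg at 0.05. Only the groups of a comparison entered its fit. Differences between lines were interaction contrasts. Scripts were tested on simulated data. The members and the gene lists were chosen with earlier results of these data known. Named genes were the 12 highest and 12 lowest called genes whose groups did not overlap and whose mean log2 CPM reached 4, up to 6 called members of each list by size of change, 18 receptor, pathway and proliferation genes, and the 6 highest and 6 lowest differences between lines. Apart from cell type markers and genes with no count, genes named outside this rule are said to be. Coordinates and promoter sequences are those of RefSeq (GRCh38.p14). Of 234 named genes, 184 had a promoter entry there outside chromosome 8, whose named genes were left out of this number.

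Same-numbered afatinib and control libraries did not deviate together (correlations of −0.071, 0.0087 and −0.071). The labels do not say whether the numbers pair libraries, and these values cannot settle it. Alternatives were DESeq2 1.42.0, its size factors in edgeR, other filters, robust dispersion and a replicate block. Others were all 42 libraries of the second set in 1 fit, and leaving out each library in turn.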

Additional observations from a re-analysis of the deposited data

Results flagged for a closer look

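The afatinib effect in BT-474 differed from that in another line in the genes given here, each by the edgeR test of the difference itself with Benjamini-Hochberg adjustment. Values are the log2 effect in BT-474 minus that in the other line. The 6 BT-474 libraries enter both comparisons.

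Against NCI-N87, the highest differences were SPINK1 at 4.81, TXNIP at 3.90, TNFSF10 at 2.81, LOXL4 at 2.64, DHRS3 at 2.52 and RAB31 at 2.36. The SPINK1 value rests on few counts in BT-474, with 0, 1 and 1 in the controls and 18, 13 and 11 with afatinib. SPINK1 stood at 438 CPM in the NCI-N87 controls. Genes high in NCI-N87 but below 1 CPM in the BT-474 controls summed to 0.160 to 0.227% of their NCI-N87 level in the latter. With afatinib this share was 0.623 to 0.727%, and its part in the SPINK1 counts was not tested. The lowest were FAM111B at −5.91, HMMR at −4.54, PRR11 at −4.41, NCAPG at −4.06, DLGAP5 at −4.02 and NUF2 at −4.00, of which HMMR, NCAPG, DLGAP5 and NUF2 act in mitosis. Among the receptor, pathway and proliferation genes, ERBB3 differed by 0.89, IGF1R by 0.86, CCND1 by −0.49, DUSP6 by −1.68 and MKI67 by −2.57.

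Against BT-20, the highest differences were TXNIP at 2.93, UCA1 at 2.54, PRRG3 at 2.25, TOX2 at 1.996, JAG1 at 1.93 and CDKN1C at 1.91. PRRG3 varied widely among the BT-20 controls, with 879, 1627 and 3104 counts, and TOX2 had 13, 6 and 3 counts in the BT-474 controls and 16, 16 and 27 with afatinib. TOX2 stood at 207 CPM in the BT-20 controls. Genes high in BT-20 but below 1 CPM in the BT-474 controls summed to 0.0596 to 0.256% of their BT-20 level in the latter. With afatinib this share was 0.309 to 0.388%, and its part in the TOX2 counts was not tested. The lowest were PGR at −6.18, PRR11 at −4.35, NUF2 at −3.94, HMMR at −3.92, APOBEC3B at −3.73 and DUT at −3.68. The PGR value is no estimate of size, since BT-20 had 0, 0 and 0 counts in the controls and 19, 29 and 25 with afatinib, at least 27.5-fold higher against a floor of 3 counts over the control group. Genes high in BT-474 but below 1 CPM in the BT-20 controls summed to 0.0237 to 0.0958% of their BT-474 level in the latter. In the BT-20 afatinib libraries this share was 0.181 to 0.270%, and its part in the PGR counts was not tested. ERBB3 differed by 0.42, IGF1R by 1.03, IRS2 by 0.72, ESR1 by 0.74, CCND1 by −0.29, DUSP6 by −0.86, ETV4 by −1.12 and MKI67 by −2.10.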

How the results depend on the processing

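The BT-474 comparison called 4053 to 5557 genes over the alternatives at the same threshold, 4515 to 5311 when 1 library was left out, 5013 with a replicate block, and 1286 with at least a 2-fold change. The difference from NCI-N87 called 1540 genes with the replicate block, 1164 with at least 2-fold, and 1456 to 4142 with 1 library left out: 1460, 1468 and 1456 without BT-474 control 3, afatinib 1 or afatinib 2, and 4142 without NCI-N87 control 1. The difference from BT-20 called 2984 with the replicate block, 1083 with at least 2-fold, 1943 with all 42 libraries in 1 fit, and 2773 to 3151 with 1 library left out. Fits without 1 library set 2 against 3. Of the named genes, 191 of 234 kept direction and call under every alternative in BT-474, 33 of 47 against NCI-N87 and 34 of 47 against BT-20. The G2/M list had 35 lower members throughout, the ATF4 list 20 to 25, and oestrogen receptor targets 11 to 19 higher members. With all 42 libraries in 1 fit, higher members numbered 5 for the ERBB2 neighbours, 5 for other receptor kinases and 9 for lysosome genes, and lower members 15 for ribosome biogenesis and 6 for heat shock chaperones. For these list counts the filters, the robust dispersion and the 42-library fit were chosen after seeing the data.

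Directions that turned were mostly of values near 0 or of genes with few counts, and with 1 exception came from leaving out 1 library. With 1 library left out, INSR in BT-474 lay between −0.26 and 0.54. The differences from NCI-N87 lay between −0.15 and 0.076 for ERBB2, −0.066 and 0.29 for ETV5, −0.40 and 0.23 for EGFR, −0.10 and 0.70 for INSR, −3.95 and 4.65 for ERBB4, −0.40 and 1.21 for IRS2, −1.35 and 4.23 for ESR1, −0.72 and 3.20 for PGR, −0.33 and 3.71 for RBM20, and −0.37 and 0.011 for MYC. The exception was ERBB2 at a minimum count of 30, with 0.0044. The differences from BT-20 lay between −0.27 and 0.085 for ETV5, −0.12 and 0.028 for ERBB2, −1.20 and 0.69 for FAM84A, and −0.95 and 0.094 for INSR. The cause was not tested.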

Other observations

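Some mesenchymal genes rose in BT-474, several of them from low levels. Of 16 genes on the list only 8 had enough counts to test. Of these 8, 5 were higher and none lower, against 20.9% and 21.8% of all genes. The median log2 fold change was 0.41 beside 0.01 over all genes. S100A4 rose from a mean of 108 to 150 CPM. TWIST1, a transcription factor gene, rose from 14.6 ± 1.54 to 39.1 ± 1.86 CPM (SD, n = 3), FN1, for fibronectin, from 9.08 ± 0.984 to 24.1 ± 1.15 CPM, and the actin-binding gene TAGLN from 6.35 ± 0.543 to 20.3 ± 3.66 CPM. In the Notch list 4 of 14 tested genes rose and 1 fell, against 20.9% and 21.8% of all genes, which is no result about the list. JAG1, a Notch ligand, rose from 5.42 ± 1.51 to 17.4 ± 3.36 CPM and HEY2, a target, from 19.9 ± 0.768 to 31.1 ± 0.792 CPM. Heat shock chaperones were lower in 10 of 18 tested genes and higher in 3, against 21.8% and 20.9% of all genes, with the mitochondrial chaperone gene HSPD1 going from 519 ± 3.46 to 323 ± 20.4 CPM and HSPB8, of chaperone-assisted autophagy, from 56.3 ± 4.56 to 133 ± 34.9 CPM. Interferon-stimulated genes were mixed, with 7 of 22 higher and 2 lower, against 20.9% and 21.8% of all genes. STAT2 rose by 1.14 ± 0.13 and OAS3 fell by 2.06 on the log2 scale.

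Some genes of gut identity had more counts with afatinib at very low levels. CDX2 and TFF2 are from the marker lists and are named here outside the rule for named genes. CDX2, an intestinal transcription factor gene, had 0, 0 and 0 counts in the controls and 29, 18 and 19 with afatinib, at least 29.0-fold higher against a floor of 3 counts over the control group. TFF2, a gastric trefoil peptide gene, had 11, 7 and 3 counts and then 34, 24 and 50. Other markers did not rise: CDH17 had 42 counts in all controls together and 21 with afatinib, and NOX1 had 182 and 121. Of 5 tested intestinal markers 3 were called higher, and of 4 gastric markers 3, with none lower, against 20.9% higher and 21.8% lower over all genes. Over the alternatives 1 to 3 were called higher in each list. NCI-N87 and other lines of the same table carry genes of this kind at high levels, and the share of reads from such genes was higher in the afatinib libraries, as given above. Its part in these counts was not tested.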
